A study of Mus musculus with 26 samples.

Results

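The genes described here are 36 mitosis and spindle checkpoint genes, of 55254 gene symbols in the table. They were taken by symbol from a list of textbook mitotic genes, and all 36 were in the table. They were measured in 26 mouse inner cell masses (ICMs), the inner cells of the blastocyst that give rise to the epiblast and the primitive endoderm. Each library came from 1 ICM of a CD-1 embryo, an outbred mouse stock, and was made by FLASH-seq, a full-length method for very small amounts of polyadenylated RNA. All embryos were collected as morulae at E2.75 (days of embryonic development) after natural mating and cultured for 24 hours in KSOM medium, after which the outer cells were lysed by immunosurgery. The groups differed only in what was added to the medium. LY+FGF4 (6 ICMs) had both LY294002 at 10 µM and FGF4 with heparin at 1 µg/ml. LY (7 ICMs) had the PI3K inhibitor LY294002 alone, and FGF4 (8 ICMs) had FGF4 with heparin alone. DMSO (5 ICMs) had the vehicle. Embryos of 5 litters were mixed before they were shared out, so the litter of an embryo is unknown, and the agents reached the whole embryo and not only the ICM.

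A dividing cell enters mitosis when the kinase Cdk1, bound to a cyclin, becomes active, and it then condenses its chromosomes and builds a spindle. Kinetochores, the protein plates on each centromere, attach the chromosomes to the spindle, and the spindle checkpoint holds the cell until all are attached. The anaphase-promoting complex (APC/C) then marks securin and cyclin B for destruction, which frees separase to part the sister chromatids. Most of these transcripts are made late in the cell cycle, so they are most abundant in cells close to division. The ICM at this stage is a rapidly dividing tissue. In a library from a whole ICM, fewer cells of a kind and less RNA per cell cannot be told apart.

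The promoters of such genes often carry a CHR element (TTTGAA), bound by the MuvB complexes, and CCAAT boxes, bound by NF-Y. RefSeq promoter sequences (build GRCm38.p6, from 250 bases before to 50 bases after the start) matched 30 of the 36 genes. TTTGAA stood on either strand in 20 of these 30 (66.7%), against 17.9% of all 32851 promoters of this length. CCAAT stood on either strand in 24 of 30 (80.0%), against 37.4% of all promoters. Both occurred in 19 of 30 (63.3%), against 7.0% of all promoters, and the motifs can share at most 1 base, at their ends. The 150 bases before the start are printed for the 7 genes whose transcript level passed the test in at least 1 comparison, 5′ to 3′ on the strand of the gene. Capitals mark TTTGAA or CCAAT on either strand (TTCAAA and ATTGG on the reverse strand).
Bub3, chr7:131560220-131560369, plus strand: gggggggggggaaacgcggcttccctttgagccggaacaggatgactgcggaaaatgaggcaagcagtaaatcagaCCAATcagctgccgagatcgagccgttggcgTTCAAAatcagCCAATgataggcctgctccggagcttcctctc
Birc5, chr11:117849087-117849236, plus strand: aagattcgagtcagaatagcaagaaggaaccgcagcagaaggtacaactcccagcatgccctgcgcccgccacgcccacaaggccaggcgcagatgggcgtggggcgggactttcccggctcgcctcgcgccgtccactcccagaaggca
Cdca3, chr6:124830026-124830175, plus strand: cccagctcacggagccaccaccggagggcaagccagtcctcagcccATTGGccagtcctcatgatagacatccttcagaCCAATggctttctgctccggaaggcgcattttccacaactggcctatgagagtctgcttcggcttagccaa
Cdca8, chr4:124936918-124937067, minus strand: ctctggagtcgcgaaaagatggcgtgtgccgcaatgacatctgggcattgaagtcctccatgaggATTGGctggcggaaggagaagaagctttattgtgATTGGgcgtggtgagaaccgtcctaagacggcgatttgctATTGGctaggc
Cenpa, chr5:30666736-30666885, plus strand: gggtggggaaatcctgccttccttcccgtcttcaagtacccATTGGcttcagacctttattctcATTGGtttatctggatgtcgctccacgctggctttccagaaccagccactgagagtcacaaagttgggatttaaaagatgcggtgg
Top2a, chr11:99024190-99024339, minus strand: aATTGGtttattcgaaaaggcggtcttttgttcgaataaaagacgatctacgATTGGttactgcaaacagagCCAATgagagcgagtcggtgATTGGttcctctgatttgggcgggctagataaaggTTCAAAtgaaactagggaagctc
Pttg1, chr11:43425982-43426131, minus strand: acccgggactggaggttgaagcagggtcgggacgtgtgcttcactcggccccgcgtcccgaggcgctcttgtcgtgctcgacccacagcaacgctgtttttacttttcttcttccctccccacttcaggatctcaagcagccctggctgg
The stretches of Bub3 and Top2a hold the CHR letters, in Bub3 at position -43 and in Top2a at -23, counted back from the base before the start. Cdca3, Cdca8 and Cenpa have them after the start instead, at positions 31, 14 and 17, outside the printed stretch. Birc5 and Pttg1 hold neither motif in the 300-base window. The starts are RefSeq starts and can differ from the outermost start of the annotated gene. The printed stretches of Pttg1, Cdca3 and Cdca8 lie wholly inside the gene spans given below. Those of Bub3 and Cenpa begin before their spans and end inside them. For Pttg1, the lack of motifs thus does not describe the sequence before the outermost start. Which start was used in these libraries was not tested. A match describes the letters and does not show a bound site. Among the 7 genes, those that were higher (Bub3, Cenpa, Pttg1 and Top2a) and those that were lower (Birc5, Cdca3 and Cdca8) each include windows with and without the CHR letters. Among the higher genes, the window without them is that of Pttg1, whose printed stretch lies inside the gene.

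The values are TPM, which are scaled for transcript length and add up to the same total in each library. They hold no read number, so the depth behind a value is unknown. The number of genes at a TPM of at least 1 ranged from 7486 to 9534 in LY+FGF4, from 9860 to 10215 in LY, from 8315 to 10871 in FGF4 and from 10212 to 11367 in DMSO. 6 libraries had under 9000 genes, namely LY+FGF4 replicates 2, 3, 5 and 8 and FGF4 replicates 2 and 3. No wide gap marks this cutoff, since FGF4 replicate 3 had 8885 genes and LY+FGF4 replicate 6 had 9156. Pou5f1, listed here as a marker shared by the ICM and the blastocyst, was present in every library, with a lowest value of 538 TPM. Of 12 trophectoderm markers, Elf5 was at 0 in 24 of 26 libraries. Krt8 and Cldn4 were above 0 in every library, with lowest values of 67.7 and 14.4 TPM. The summed TPM of the 12 trophectoderm markers ranged from 231 to 1202 in LY+FGF4 and from 893 to 1406 in LY. It ranged from 406 to 1242 in FGF4 and from 729.8 to 1440.2 in DMSO. The summed TPM of 5 epiblast markers ranged from 8.77 to 259 in LY+FGF4, from 342.5 to 437 in LY, from 7.43 to 255 in FGF4 and from 356 to 472 in DMSO. The summed TPM of 5 primitive endoderm markers ranged from 561 to 2184 in LY+FGF4, from 139 to 303 in LY, from 1062 to 1916 in FGF4 and from 311 to 665 in DMSO. The epiblast sums of both groups with FGF4 thus lay below those of both groups without it. Sox2, 1 of the 5 epiblast markers, departed from this order. It averaged 40.9 TPM in LY+FGF4, 35.8 TPM in LY, 20.2 TPM in FGF4 and 25.5 TPM in DMSO. The primitive endoderm sums of the FGF4 libraries lay above those of DMSO, while those of LY+FGF4 overlapped with DMSO. Sox7, 1 of the 5 primitive endoderm markers, was at 0 in every LY+FGF4, LY and DMSO library. The part of these cell types in the values of the mitotic genes was not tested.

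35 of the 36 genes passed the filter on low values, which asked for 1 TPM or more in 5 or more libraries, and none of them was at 0 in more than 1 library of a group. Cdc25b, a phosphatase that activates Cdk1, did not pass, with at most 3.93 TPM in any library. By the mean of the 4 group means, the highest levels were those of Pttg1 (489 TPM), Cks2 (487 TPM), Birc5 (470.5 TPM), Bub3 (368 TPM) and Cdc20 (317 TPM). Neighbours in this order, such as Pttg1 and Cks2, lie closer together than the spread between libraries of a group. The lowest levels among the genes tested were those of Mki67 (10.5 TPM), Kif11 (13.7 TPM) and Ttk (25.2 TPM). The level of Ccnb1 and Cks2 is uncertain, since 23.4% and 29.7% of their 50-base stretches also occur in other annotated genes, most of them processed pseudogenes.

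**Figure D1:**
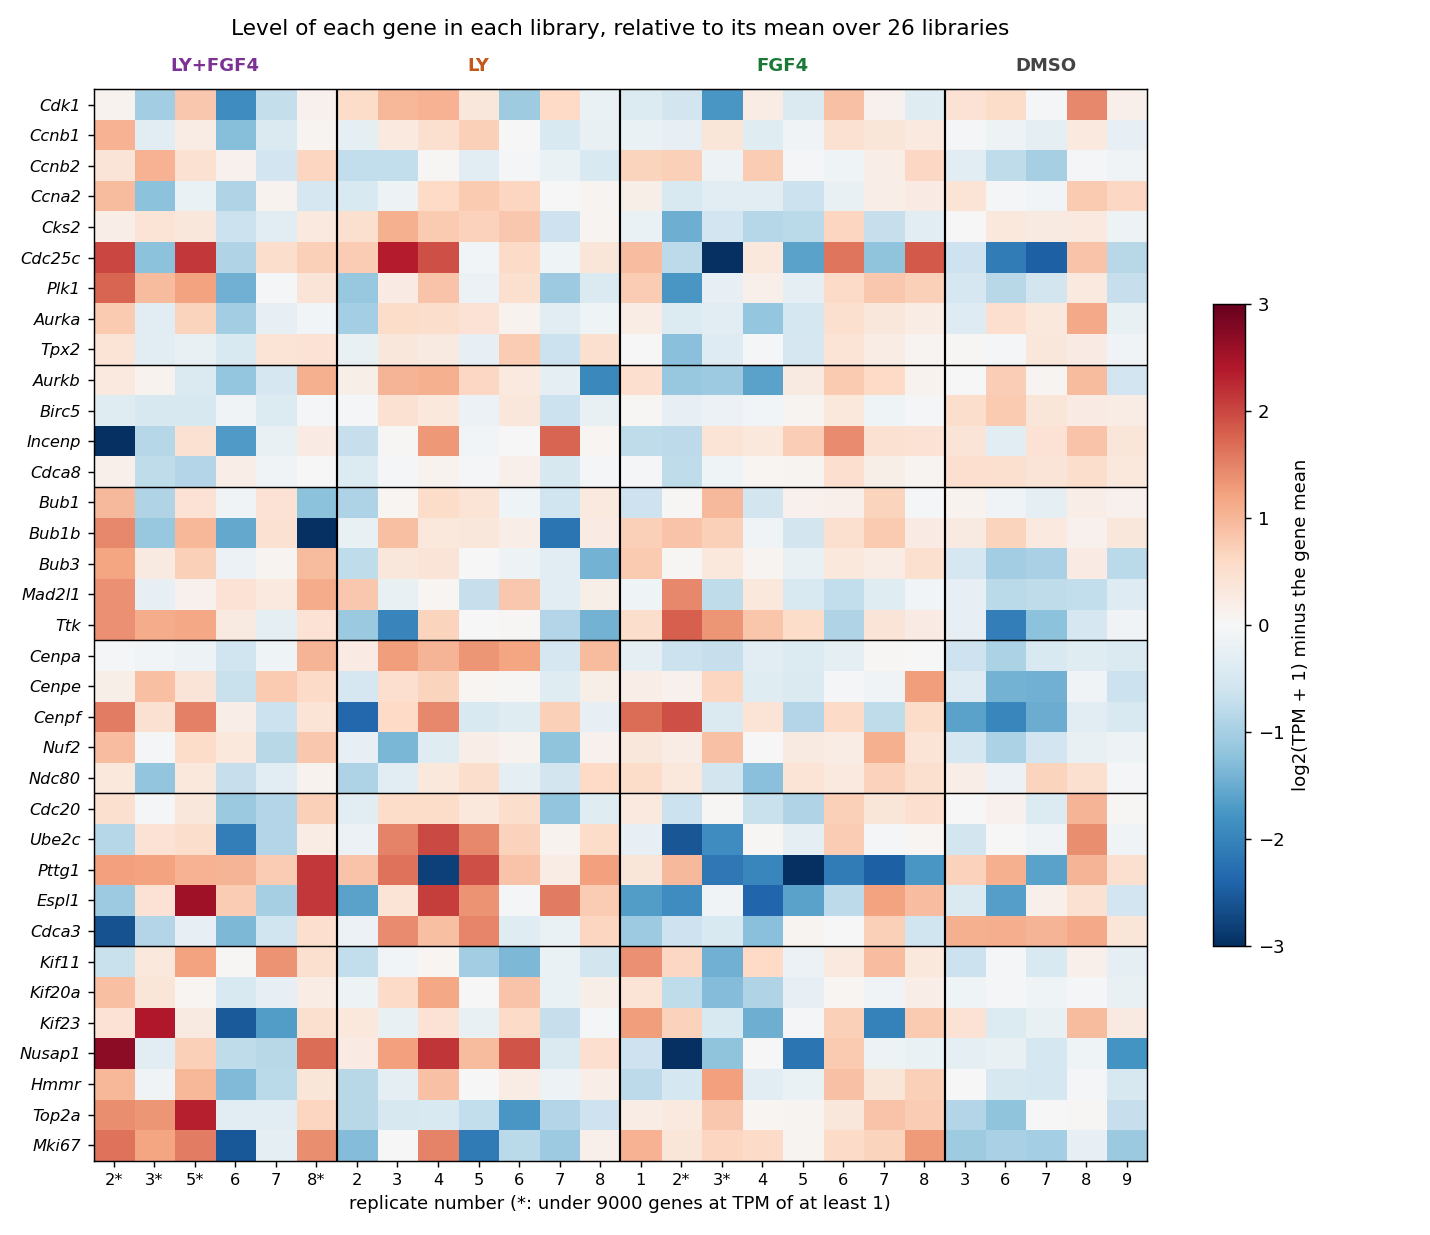
Level of each of the 35 genes tested (down the page, by role) in each library (across, by group, with LY+FGF4 leftmost and DMSO rightmost), as log2(TPM + 1) minus the mean of the gene over 26 libraries; colours are cut at 3 in either direction and asterisks mark libraries under 9000 genes. Within DMSO, replicate 8 had the highest value for 25 of 35 genes, and no group is red or blue throughout.

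Across the 5 pairwise comparisons and the interaction, 7 of the 36 genes passed the test at least once and 29, Cdc25b included, passed in none. The test was limma on log2(TPM + 1), with p-values adjusted by Benjamini-Hochberg over the 12034 genes tested and a threshold of 0.05. Folds are on this scale, which understates the change of genes with low TPM. Log2 fold changes above 0 stood beside ones below 0 in every comparison, and the comparisons share groups, so their values for a gene are not independent. Of 35 genes, 18 had a log2 fold change above 0 and 17 one below 0 in LY+FGF4 against DMSO, with a median of 0.26. The median over all genes tested in that comparison was -0.37. In the others, the median over the 35 genes and over all genes tested was 0.09 and -0.10 for LY against DMSO, -0.06 and -0.10 for FGF4 against DMSO, 0.09 and -0.24 for LY+FGF4 against FGF4, and -0.10 and -0.24 for LY+FGF4 against LY.

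**Figure D2:**
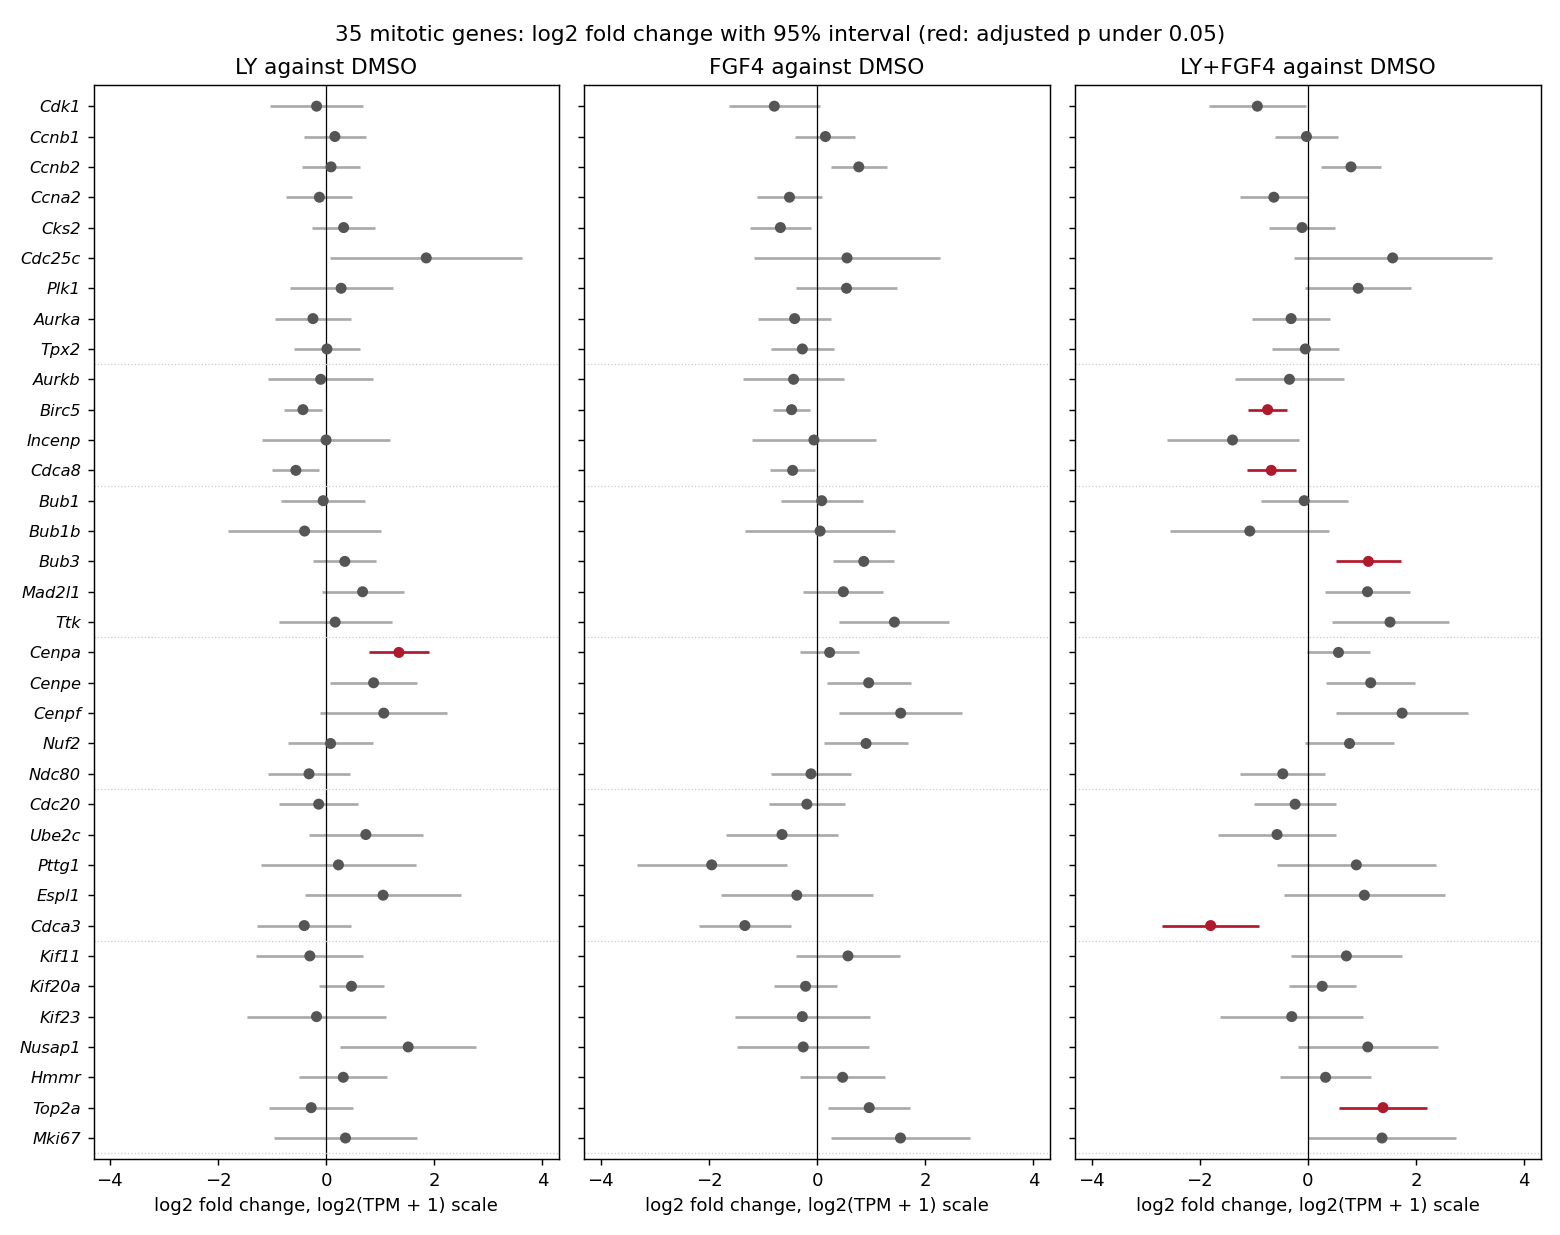
Log2 fold change (x axis, log2(TPM + 1) scale) of the 35 genes tested (y axis, ordered by role), with 95% intervals from limma as lines. The panels show LY against DMSO, FGF4 against DMSO and LY+FGF4 against DMSO, and red marks an adjusted p under 0.05. Red points lie on both sides of 0, and the interval of Cdca3 in LY+FGF4 against DMSO is centred on -1.80.

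LY against DMSO asks what PI3K inhibition does without added FGF4, and 1 of 35 genes passed the test (2.86%, against 0.374% of all genes tested, and 0.0748% in the higher direction). That gene was Cenpa (chr5:30666777-30674830, GRCm38), the histone H3 variant that marks the centromere. In LY, its lowest, median and highest levels were 187, 541 and 666 TPM. The DMSO libraries had 172, 138, 194, 206 and 198 TPM. 6 of 7 LY libraries lay above every DMSO library, and LY replicate 7, at 187 TPM, lay inside their range. Cenpa averaged 497 ± 179.6 TPM in LY (SD, n = 7) and 182 ± 27.4 TPM in DMSO (SD, n = 5), a log2 fold change of 1.35 (SE 0.27, limma adjusted p = 0.0207). The call was lost without DMSO replicate 3 (adjusted p = 0.0588), replicate 6 (0.0724) or replicate 9 (0.0524). It was also lost in limma with the replicate number as a block (adjusted p = 0.161).

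With FGF4 in the medium, the level of Cenpa was lower than in LY alone but that difference did not pass. LY+FGF4 libraries had a lowest, median and highest level of 174, 249.4 and 540.2 TPM, and FGF4 libraries 164, 214 and 275 TPM. The log2 fold change of LY+FGF4 against LY was -0.78 (limma adjusted p = 0.0686). The LY effect on Cenpa with FGF4 minus that without it was -1.01 (unadjusted p = 0.0107, limma adjusted p = 0.623). The LY+FGF4 against LY value passed without LY replicate 7 (adjusted p = 0.00929) or LY+FGF4 replicate 8 (adjusted p = 0.0161).

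The other genes with the largest values in LY against DMSO did not pass. Cdc25c, a phosphatase that activates Cdk1, had 26.1, 43.5 and 150.3 TPM as its lowest, median and highest level in LY, against 18.4, 5.93, 4.47, 52.5 and 15.8 TPM in DMSO, with a log2 fold change of 1.85 (limma adjusted p = 0.54). DMSO replicate 8 overlapped the LY range and the other DMSO libraries lay below it. In LY+FGF4, the lowest, median and highest level of Cdc25c were 11.7, 44.7 and 128 TPM. The log2 fold change of LY+FGF4 against DMSO was 1.57 (limma adjusted p = 0.2835). Nusap1, which bundles spindle microtubules, had 74.3, 199 and 452 TPM in LY, against 84.6, 87.2, 70.1, 92.4 and 28.7 TPM in DMSO (log2 fold change 1.52, adjusted p = 0.4098). 6 of 7 LY libraries were above the DMSO range, and the groups overlapped through the other.

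The 4 chromosomal passenger genes code for Aurkb, the kinase that corrects faulty attachments, and its partners Birc5 (survivin), Incenp and Cdca8 (borealin). All 4 had log2 fold changes below 0 in LY against DMSO, with a median of -0.26, in FGF4 against DMSO (median -0.44), in LY+FGF4 against LY (median -0.28) and in LY+FGF4 against DMSO (median -0.71). In LY+FGF4 against FGF4, 3 were below 0 and Aurkb was above it (0.09), with a median of -0.25. Over all 12034 genes tested, 6871, 6747, 7357, 7849 and 7595 were below 0, in the same order of comparisons. Some passenger values lay close to 0. In LY against DMSO, Incenp was at -0.0013 and Aurkb at -0.10, and they changed sign in 12 and 4 of 33 alternative settings. In FGF4 against DMSO, Incenp was at -0.06 and changed sign in 6 of 33. 2 of the 4 passenger genes passed, both in LY+FGF4 against DMSO and both lower. In that comparison 5 of all 35 genes passed (14.29%, against 9.5% of all genes tested), 2 higher and 3 lower, against 2.19% and 7.3% of all genes. Birc5 and Cdca8 were the 2 of 35 genes whose LY+FGF4 libraries all lay below the DMSO libraries, against 4.85% of all genes. The number of genes listed moved with this comparison, since every LY+FGF4 library listed fewer than every DMSO library. With that number as a covariate none of the 5 passed in limma, and the log2 fold changes were -0.63 for Birc5, -0.34 for Cdca8, -1.37 for Cdca3, 0.86 for Bub3 and 0.75 for Top2a (adjusted p = 0.282, 0.682, 0.3402, 0.381 and 0.597).

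Birc5 (chr11:117849251-117855743) had 323, 344 and 432 TPM as its lowest, median and highest level in LY+FGF4, 287, 437 and 615 TPM in LY, and 377, 427 and 557 TPM in FGF4. Its levels in DMSO were 652, 776, 582, 531 and 525 TPM. All 6 LY+FGF4 libraries lay below all 5 DMSO libraries, while LY and FGF4 overlapped with DMSO. Birc5 fell to 364 ± 48.1 TPM in LY+FGF4 (SD, n = 6), against 613 ± 104 TPM in DMSO (SD, n = 5), a log2 fold change of -0.75 (SE 0.18, limma adjusted p = 0.00894). For LY against DMSO and FGF4 against DMSO it was -0.43 and -0.47 (adjusted p = 0.415 and 0.144). Without the 6 libraries under 9000 genes, the value of LY+FGF4 against DMSO was -0.69 (adjusted p = 0.113, with 2 LY+FGF4 libraries left).

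Cdca8 (chr4:124918465-124939311) had 132, 238 and 279 TPM in LY+FGF4 as its lowest, median and highest level, 175, 236 and 271 TPM in LY, and 144, 257 and 348 TPM in FGF4. In DMSO it had 350.1, 342, 319.7, 354 and 306 TPM, so that every LY+FGF4 library and every LY library lay below every DMSO library. The mean was 217 ± 64.3 TPM in LY+FGF4 (SD, n = 6) and 334 ± 20.9 TPM in DMSO (SD, n = 5), and the log2 fold change was -0.68 (SE 0.22, limma adjusted p = 0.0478). This value lay close to the threshold. It passed in 10 of 33 alternative settings, its adjusted p reached 0.106 when LY+FGF4 replicate 5 was left out, and it was 0.296 with a log2 fold change of -0.40 without the 6 libraries under 9000 genes. In LY against DMSO, Cdca8 was the 1 gene of 35 whose groups did not overlap, against 1.54% of all genes in the lower direction, and it did not pass (log2 fold change -0.56, adjusted p = 0.366). The start of Cdca8 overlaps the gene 9930104L06Rik on the other strand, and whether the counting used strand is not given in the sources used here, so the level of Cdca8 may include reads of that gene.

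Incenp and Aurkb did not pass in any comparison. Incenp, the scaffold of the complex, had 2.43, 45.3 and 88.4 TPM as its lowest, median and highest level in LY+FGF4, 39.5, 66.3 and 218 TPM in LY, 36.8, 87.0 and 174 TPM in FGF4, and 84.6, 50.9, 87.4, 117 and 83.9 TPM in DMSO. Its log2 fold change was -1.34 for LY+FGF4 against FGF4, -1.39 for LY+FGF4 against LY and -1.39 for LY+FGF4 against DMSO, with limma adjusted p-values of 0.162, 0.126 and 0.1399. The LY+FGF4 libraries reached lower than the others, but their range overlapped with each group. The interaction value for Incenp was -1.34 (adjusted p = 0.871).

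The 5 spindle checkpoint genes code for the kinases Bub1 and Ttk (Mps1), and for Bub1b (BubR1), Bub3 and Mad2l1 (Mad2), which hold the APC/C inactive. In LY+FGF4 against DMSO, 3 had log2 fold changes above 0 and 2 below 0, with a median of 1.101, and 1 passed. All 5 were above 0 in FGF4 against DMSO (median 0.49), where none passed. Over all 12034 genes tested, 5286 were above 0 in that comparison.

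Bub3 (chr7:131560222-131571895), which carries Bub1 and BubR1 to the kinetochore, had 303, 489 and 781 TPM as its lowest, median and highest level in LY+FGF4, 129, 309.6 and 446 TPM in LY, and 292.5, 412 and 589 TPM in FGF4. In the DMSO libraries it had 240.0, 167, 175, 407 and 196 TPM. DMSO replicate 8, at 407 TPM, lay inside the LY+FGF4 range and the other 4 lay below it. Bub3 averaged 514 ± 187 TPM in LY+FGF4 (SD, n = 6) and 237 ± 99.3 TPM in DMSO (SD, n = 5), a log2 fold change of 1.12 (SE 0.29, limma adjusted p = 0.0166). The call was lost without DMSO replicate 6 (adjusted p = 0.0537), and without the 6 libraries under 9000 genes the log2 fold change was 0.56 (adjusted p = 0.438). In FGF4 against DMSO it was 0.86 (adjusted p = 0.0931, or 0.0434 without DMSO replicate 8) and in LY+FGF4 against LY 0.77 (adjusted p = 0.0844, or 0.0495 without LY+FGF4 replicate 6). The annotated span of Fgfr2 covers Bub3 on the other strand.

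Ttk, the kinase that starts checkpoint signalling, had 17.1, 37.3 and 55.5 TPM as its lowest, median and highest level in LY+FGF4, 4.56, 10.8 and 33.4 TPM in LY, and 10.6, 30.8 and 74.0 TPM in FGF4. In DMSO it had 17.5, 4.14, 8.31, 14.2 and 19.1 TPM. The medians of both groups with FGF4 lay above every DMSO library, though the ranges overlapped. The log2 fold change was 1.52 for LY+FGF4 against DMSO, 1.35 for LY+FGF4 against LY and 1.43 for FGF4 against DMSO. The limma adjusted p-values were 0.0661 (0.0431 without LY+FGF4 replicate 7), 0.0933 and 0.129. Without the 6 libraries under 9000 genes, the LY+FGF4 against DMSO value of Ttk was 0.84 (adjusted p = 0.504). Bub1b, the checkpoint member with the lowest value in LY+FGF4, was at 0 in 1 LY+FGF4 library and had a median of 22.2 and a highest level of 68.1 TPM in that group, against a lowest, median and highest level of 16.4, 37.4 and 44.8 TPM in FGF4 and against 29.3, 39.1, 30.1, 26.9 and 30.8 TPM in DMSO. Its log2 fold change was -1.13 for LY+FGF4 against FGF4 and -1.08 for LY+FGF4 against DMSO (adjusted p = 0.347 and 0.365).

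Besides Cenpa, the centromere and kinetochore genes were the motor Cenpe, the large coiled-coil protein Cenpf, and Nuf2 and Ndc80 of the complex that grips microtubules. Of these 5 genes, 4 had log2 fold changes above 0 in LY+FGF4 against DMSO (median 0.77), 4 in LY against DMSO (median 0.88) and 4 in FGF4 against DMSO (median 0.91). Over all 12034 genes tested, 4161, 5139 and 5286 were above 0 in the same order. Cenpf had 22.5, 48.7 and 105 TPM as its lowest, median and highest level in LY+FGF4, 6.14, 29.9 and 98.3 TPM in LY, and 19.0, 50.1 and 140.2 TPM in FGF4. Its DMSO libraries had 11.1, 8.41, 12.1, 28.6 and 25.9 TPM, a range that overlapped with each of the other groups. The log2 fold change was 1.74 for LY+FGF4 against DMSO and 1.55 for FGF4 against DMSO (limma adjusted p = 0.0612 and 0.145). The LY+FGF4 against DMSO value passed without LY+FGF4 replicate 7 (0.0347), LY replicate 2 (0.0378) or FGF4 replicate 2 (0.0479). Without the 6 libraries under 9000 genes it was 0.94 (adjusted p = 0.514). The interaction value for Cenpf was -0.87 (adjusted p = 0.928).

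**Figure D3:**
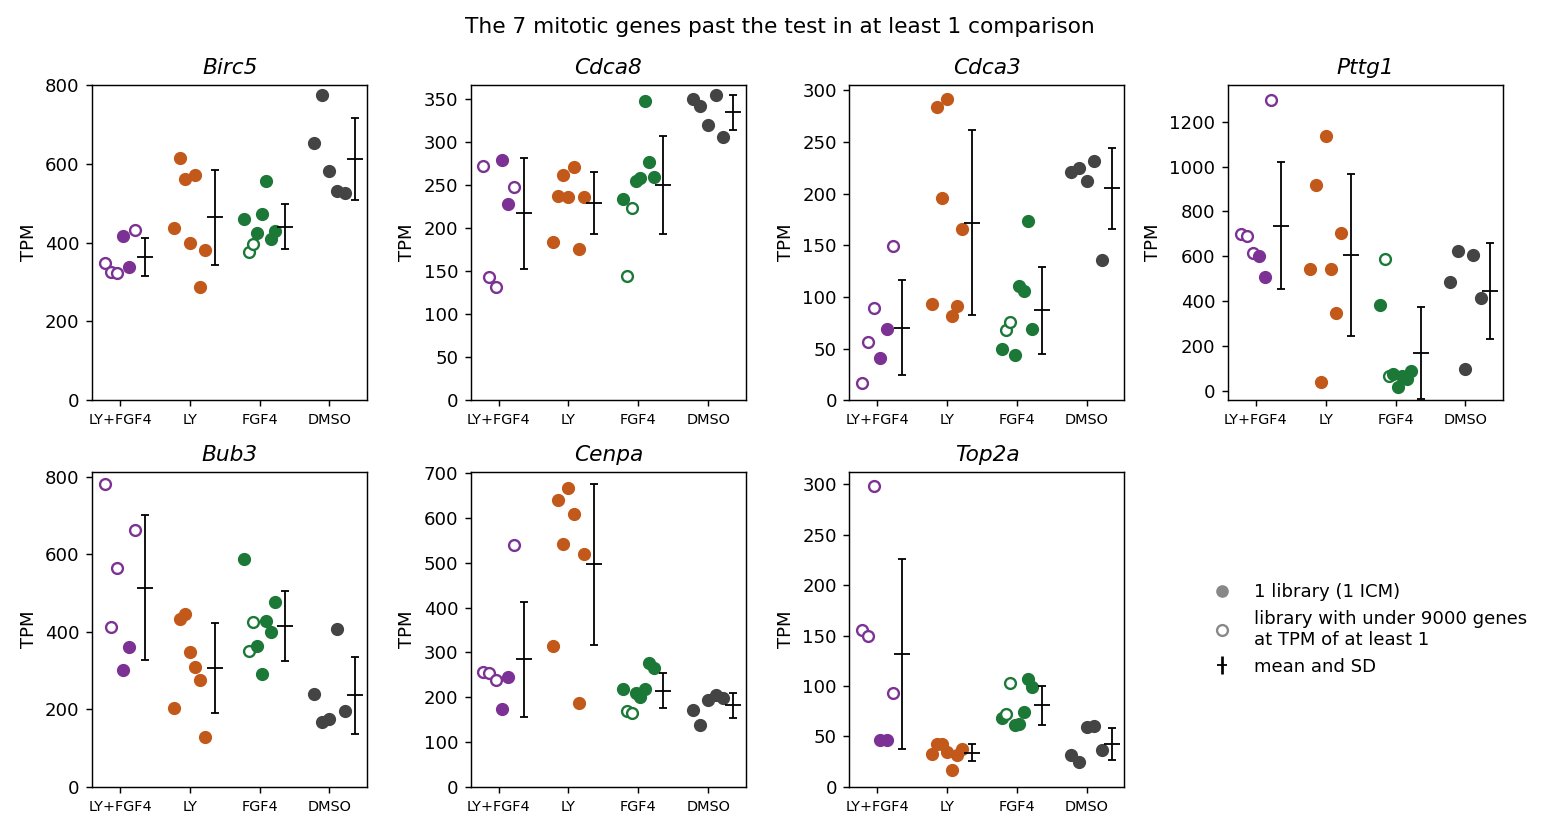
TPM (y axis) in each library of the 7 genes that passed in at least 1 comparison, by group, with the mean and SD. The y axis starts at 0, except for Pttg1, where it starts below 0 to hold the SD of FGF4. Open circles are libraries under 9000 genes at a TPM of at least 1. For Birc5, all 6 LY+FGF4 libraries (323 to 432 TPM) lie below all 5 DMSO libraries (525 to 776 TPM), and for Pttg1 the libraries of a group fall far apart.

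The group around the APC/C held its activator Cdc20, the ubiquitin carrier Ube2c, securin (Pttg1), separase (Espl1) and Cdca3, which takes part in the destruction of the Cdk1 inhibitor Wee1. In LY+FGF4 against FGF4, the comparison that asks what PI3K inhibition does in the presence of FGF4, Pttg1 was the 1 gene of the 35 that passed (2.86%, against 3.55% of all genes tested, and 0.723% in the higher direction). Pttg1 (chr11:43420250-43426251) had 509.6, 653 and 1297 TPM as its lowest, median and highest level in LY+FGF4, 42.3, 546 and 1136 TPM in LY, and 19.3, 72.5 and 590.2 TPM in FGF4. The DMSO libraries had 487, 624, 98.2, 607 and 415 TPM. Of the 8 FGF4 libraries, 6 lay below every LY+FGF4 and every DMSO library, and the highest FGF4 library lay inside the LY+FGF4 range. Pttg1 averaged 736 ± 283 TPM in LY+FGF4 (SD, n = 6) and 168 ± 205 TPM in FGF4 (SD, n = 8), a log2 fold change of 2.84 (SE 0.64, limma adjusted p = 0.0134). Without the 6 libraries under 9000 genes the value was 2.85 (adjusted p = 0.169), and with the number of genes as a covariate it was 2.18 (adjusted p = 0.1796).

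In FGF4 against DMSO, Pttg1 had a log2 fold change of -1.95, which did not pass (limma adjusted p = 0.131). The LY effect on Pttg1 with FGF4 minus that without it was 2.62 (unadjusted p = 0.0101, adjusted p = 0.6096). No gene of the 35 passed for the interaction, against 0.0499% of all genes tested, and 2 of 35 had an unadjusted p under 0.05, namely Pttg1 and Cenpa, against 6.03% of all genes. Espl1, the protease that securin holds back, had 14.5, 49.2 and 192 TPM as its lowest, median and highest level in LY+FGF4, against 5.34, 14.04 and 74.5 TPM in FGF4. The ranges overlapped and its log2 fold change of 1.42 did not pass (adjusted p = 0.233).

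Cdca3 (chr6:124829547-124833701) had 16.3, 62.7 and 149 TPM as its lowest, median and highest level in LY+FGF4, 81.9, 166 and 292 TPM in LY, and 43.7, 72.4 and 174 TPM in FGF4. The DMSO libraries had 221, 225, 213, 232 and 136 TPM. DMSO replicate 9, at 136 TPM, was the library inside the LY+FGF4 range, and the other 4 lay above it. Cdca3 averaged 70.1 ± 46.1 TPM in LY+FGF4 (SD, n = 6), 172 ± 89.8 TPM in LY (SD, n = 7) and 205 ± 39.3 TPM in DMSO (SD, n = 5). It fell by 1.80 on the log2 scale in LY+FGF4 against DMSO (SE 0.44, limma adjusted p = 0.00959) and by 1.39 in LY+FGF4 against LY (SE 0.40, adjusted p = 0.0361). In FGF4 against DMSO the log2 fold change was -1.33 (adjusted p = 0.0801, or 0.0354 without LY+FGF4 replicate 2), and in LY against DMSO it was -0.40 (adjusted p = 0.904). LY+FGF4 against FGF4 gave -0.46 (adjusted p = 0.551).

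The call of Cdca3 in LY+FGF4 against LY was close to the threshold. It was not made with the number of genes as a covariate (log2 fold change -1.11, adjusted p = 0.342), without the filter on low values (adjusted p = 0.0576) or without the 6 libraries under 9000 genes (-1.51, adjusted p = 0.0824). It was also lost without LY+FGF4 replicate 2 (adjusted p = 0.104), replicate 3 (0.0502) or replicate 6 (0.0681), and without LY replicate 3 (0.0766), replicate 4 (0.0654), replicate 5 (0.0761) or replicate 8 (0.0593). Ube2c, which starts ubiquitin chains on APC/C substrates, had 22.1, 83.4 and 139.7 TPM as its lowest, median and highest level in LY+FGF4, against 86.0, 156 and 381 TPM in LY. These ranges overlapped, and its log2 fold change of -1.31 did not pass (limma adjusted p = 0.1098). Without the 6 libraries under 9000 genes, which leaves 2 LY+FGF4 libraries, Ube2c passed (-2.35, adjusted p = 0.00906), as did Cdk1 (-1.62, adjusted p = 0.0474).

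LY+FGF4 against LY asks what FGF4 does while PI3K is inhibited, and 2 of 35 genes passed (5.71%, against 6.3% of all genes tested), Top2a in the higher and Cdca3 in the lower direction (1.79% and 4.5% of all genes). Top2a (chr11:98992943-99024189), the topoisomerase that untangles chromosomes before they part, had 46.8, 121 and 298 TPM as its lowest, median and highest level in LY+FGF4, 16.9, 34.8 and 42.6 TPM in LY, and 61.3, 73.0 and 107 TPM in FGF4. The DMSO libraries had 31.3, 25.1, 59.5, 59.9 and 36.3 TPM. All LY+FGF4 libraries lay above all LY libraries, which held for 1 of the 35 genes and 0.623% of all genes, and all FGF4 libraries above all DMSO libraries. Top2a rose to 132 ± 94.5 TPM in LY+FGF4 (SD, n = 6), against 34.0 ± 8.69 TPM in LY (SD, n = 7), a log2 fold change of 1.66 (SE 0.36, limma adjusted p = 0.00644). Against DMSO (42.4 ± 16.3 TPM, SD, n = 5) the log2 fold change of LY+FGF4 was 1.39 (SE 0.39, adjusted p = 0.0253).

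Both values of Top2a depended on the LY+FGF4 libraries with few genes. Without the 6 libraries under 9000 genes, which leaves 2 LY+FGF4 libraries, the log2 fold change was 0.50 against LY (adjusted p = 0.517) and 0.22 against DMSO (adjusted p = 0.784). With the number of genes as a covariate, the value against LY was 1.23 (adjusted p = 0.198). The call against DMSO was also lost without LY+FGF4 replicate 2 (0.0518) or 5 (0.0616) and without DMSO replicate 3 (0.0632), 6 (0.0777) or 9 (0.0524). For FGF4 against DMSO, Top2a had a log2 fold change of 0.97 (adjusted p = 0.175), and the interaction value was 0.70 (adjusted p = 0.899), or -0.43 without the 6 libraries (adjusted p = 0.825).

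The remaining spindle and chromosome genes were the motors Kif11, Kif20a and Kif23, the microtubule-binding Nusap1 and Hmmr, and Mki67 (Ki-67), which coats mitotic chromosomes. Kif11, the motor that pushes the spindle poles apart, had 7.26, 16.2 and 32.0 TPM as its lowest, median and highest level in LY+FGF4, against 4.12, 7.91 and 12.7 TPM in LY. The log2 fold change was 1.01 (limma adjusted p = 0.194) and the ranges overlapped. The interaction value for Kif11 was 0.44 (adjusted p = 0.963). Nusap1 had 57.0, 123 and 654 TPM in LY+FGF4, against 10.7, 76.7 and 177 TPM in FGF4 (log2 fold change 1.36, adjusted p = 0.182). The value of Nusap1 was -0.40 (adjusted p = 0.823) without the 6 libraries under 9000 genes. The Nusap1 ranges of these groups overlapped.

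Mki67 had 0.55, 21.2 and 26.8 TPM as its lowest, median and highest level in LY+FGF4, 1.06, 4.12 and 24.3 TPM in LY, and 8.56, 12.8 and 20.7 TPM in FGF4. In DMSO there were 3.28, 3.62, 3.45, 6.56 and 3.16 TPM. Every FGF4 library lay above every DMSO library, and the log2 fold change of 1.54 did not pass (limma adjusted p = 0.206). At these low levels the log2(TPM + 1) scale understates the difference.

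FGF4 against DMSO asks what added FGF4 does without the inhibitor, and 0 of 35 genes passed in limma, against 2.44% of all genes tested. At an unadjusted p under 0.05 there were 13 of 35, 8 higher and 5 lower, against 15.5% of all genes. 3 genes had no overlap between the groups and were higher in FGF4 (Top2a, Mki67 and Nuf2), against 1.13% of all genes in that direction. Nuf2 had 24.7, 31.0 and 52.7 TPM as its lowest, median and highest level in FGF4, against 17.1, 12.3, 16.4, 21.2 and 22.4 TPM in DMSO (log2 fold change 0.91, adjusted p = 0.2196). The APC/C group had all 5 genes below 0 (median -0.65), while the spindle checkpoint group had all 5 above 0. Over all 12034 genes tested, 6747 were below 0 and 5286 above it.

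Of the 10 entry genes, which code for Cdk1, its cyclins and activators, the mitotic kinases Plk1 and Aurka, and Tpx2, none passed in any comparison. Their median log2 fold change was -0.05 in LY+FGF4 against DMSO, 0.09 in LY against DMSO and -0.27 in FGF4 against DMSO. Cdk1 itself had 75.3, 195 and 469 TPM as its lowest, median and highest level in FGF4, against 346, 371, 245, 697 and 286 TPM in DMSO. The log2 fold change of Cdk1 was -0.79 (limma adjusted p = 0.357). In LY+FGF4 against DMSO it was -0.94 (adjusted p = 0.178), and -1.79 without the 6 libraries under 9000 genes (adjusted p = 0.0357). DMSO replicate 8 was far above the other DMSO libraries, and 3 FGF4 libraries lay inside the DMSO range. Cyclin genes gave values in both directions. Ccnb2 had a log2 fold change of 0.80 in LY+FGF4 against DMSO (limma adjusted p = 0.0598, or 0.0146 without LY+FGF4 replicate 7). Its mean was 221 ± 77.3 TPM in LY+FGF4 (SD, n = 6) and 124 ± 34.6 TPM in DMSO (SD, n = 5). Without the 6 libraries under 9000 genes, the log2 fold change of Ccnb2 was 0.22 (adjusted p = 0.736).

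Among the members not past the test, Mad2l1, which binds and blocks Cdc20, had 44.6, 68.6 and 139 TPM as its lowest, median and highest level in LY+FGF4, against 44.9, 29.9, 31.2, 31.4 and 40.3 TPM in DMSO. These groups overlapped by the lowest LY+FGF4 library, and the log2 fold change was 1.101 (limma adjusted p = 0.0659, or 0.0409 without LY+FGF4 replicate 3 and 0.0337 without FGF4 replicate 2). Without the 6 libraries under 9000 genes, the value of Mad2l1 was 0.95 (adjusted p = 0.172). Cenpe, the motor that carries chromosomes to the spindle equator, had 15.9, 36.2 and 49.3 TPM in LY+FGF4, against 19.4, 8.97, 8.83, 23.9 and 16.1 TPM in DMSO (log2 fold change 1.16, adjusted p = 0.066, or 0.0316 without LY+FGF4 replicate 6). Without the 6 libraries, the value of Cenpe was 0.86 (adjusted p = 0.368). Kif20a, a motor of cytokinesis, averaged 176 ± 62.0 TPM in LY+FGF4 (SD, n = 6), 205 ± 79.2 TPM in LY (SD, n = 7), 129 ± 49.3 TPM in FGF4 (SD, n = 8) and 139.8 ± 6.71 TPM in DMSO (SD, n = 5), the smallest spread of the 35 genes within DMSO on the log2 scale. Ccna2, Ccnb1, Cks2, Plk1, Aurka, Tpx2, Aurkb, Bub1, Ndc80, Cdc20, Kif23 and Hmmr also passed in no comparison. Kif23 passed in LY+FGF4 against DMSO when the 6 libraries under 9000 genes were left out (-2.30, adjusted p = 0.0498).

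Libraries of a group differed among themselves for the whole set. The summed TPM of the 36 genes ranged from 3585 to 7761 in LY+FGF4, from 4054 to 7881 in LY, from 3752 to 6229.8 in FGF4 and from 4429.7 to 7131 in DMSO, and the groups overlapped. In LY+FGF4, replicate 2 had the highest value of the group for 16 of 35 genes and replicate 6 the lowest for 17. LY replicate 4 was highest for 17 of 35 and DMSO replicate 8 for 25 of 35. The median SD of the 35 genes on the log2(TPM + 1) scale was 0.767 in LY+FGF4, 0.635 in LY, 0.62 in FGF4 and 0.421 in DMSO. Over all genes tested it was 1.207, 0.777, 0.992 and 0.569 in the same order of groups.

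**Figure D4:**
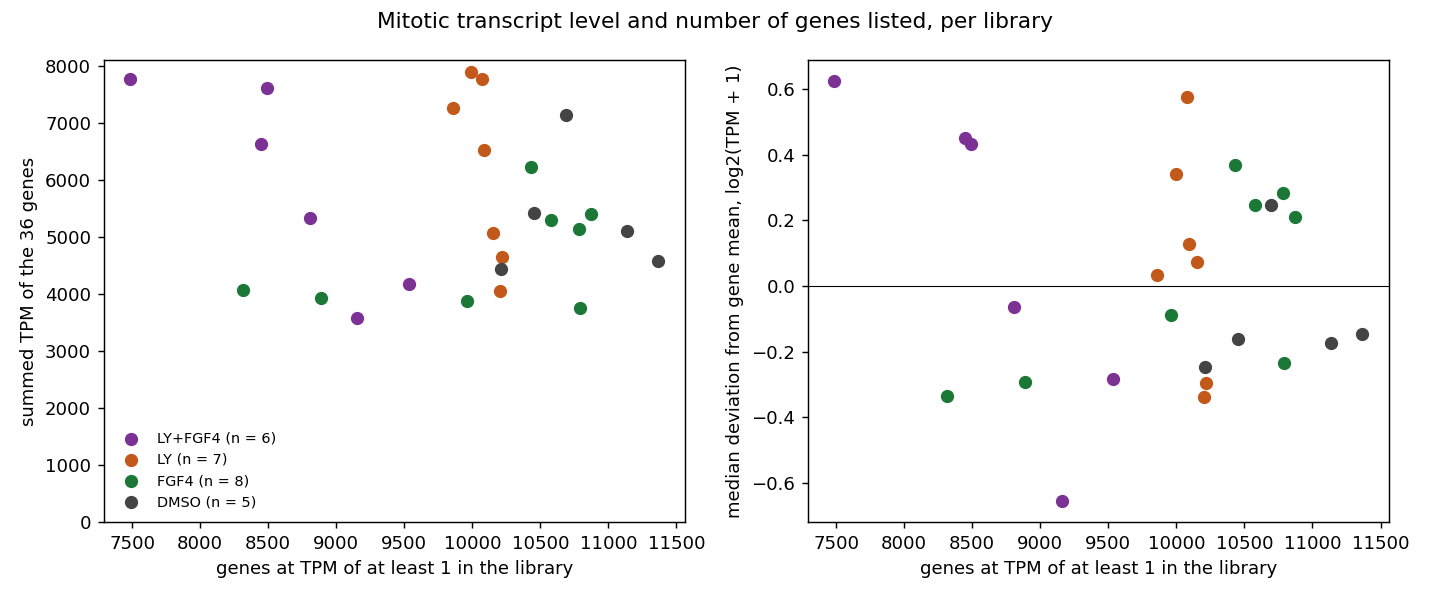
Summed TPM of the 36 genes (left, y axis from 0) and the median over the genes of log2(TPM + 1) minus the gene mean (right) against the number of genes at a TPM of at least 1, with a point per library coloured by group. The summed TPM of the groups overlaps, and LY+FGF4 libraries lie to the left, with 7486 to 9534 genes.

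Beyond the 36 genes, 119 other mitotic genes were listed by textbook role, and all 119 passed the filter. In LY+FGF4 against DMSO, 8 rose and 4 fell, which is 10.08% of the 119, close to the 9.5% called of all genes tested. The median log2 fold change of the 119 was -0.10, against -0.37 over all genes tested. Among the condensin and cohesin genes, Smc3, a core cohesin subunit (log2 fold change 1.00, adjusted p = 0.0164), Pds5a (1.95, adjusted p = 0.0257) and Wapl (1.93, adjusted p = 0.0262), which regulate how long cohesin stays on chromosomes, rose, and Cdca5 (sororin), which protects cohesin from Wapl, fell (-1.33, adjusted p = 0.0216). Smc3 averaged 102 ± 27.1 TPM in LY+FGF4 (SD, n = 6) and 49.4 ± 8.03 TPM in DMSO (SD, n = 5). Among the other kinetochore genes, values are given for 4. Spc24, a partner of Ndc80, fell by 1.90 (adjusted p = 0.0012), with 117 ± 61.4 TPM in LY+FGF4 and 379 ± 91.3 TPM in DMSO, while its dimer partner Spc25 rose (1.38, adjusted p = 0.0294), with 146 ± 86.3 TPM in LY+FGF4 and 49.2 ± 18.6 TPM in DMSO. Cenpx rose (0.88, adjusted p = 0.0361) and Zwilch fell (-2.36, adjusted p = 0.0383). Of the 16 APC/C subunits and regulators, Anapc13 rose (1.69, adjusted p = 0.01995) and Cdc27 fell (-1.47, adjusted p = 0.0384), and the microtubule polymerase gene Ckap5 rose (1.75, adjusted p = 0.038). These adjusted p-values are from limma. The alternative settings were not examined gene by gene for these genes, nor for the S phase and CDK inhibitor genes below. With the number of genes as a covariate, the calls over all genes in LY+FGF4 against DMSO went from 1143 to 75.

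In LY+FGF4 against LY, Smc3 and Wapl rose and Spc24 fell, with limma log2 fold changes of 1.01, 1.82 and -1.62 and adjusted p-values of 0.0114, 0.0296 and 0.00297. The share called was 3.36% of the 119, against 6.3% of all genes. In FGF4 against DMSO, Smc3 rose (0.95, adjusted p = 0.0334) and the phosphatase gene Ppp1cc fell (-0.84, adjusted p = 0.00717), which is 1.68% of the 119, against 2.44% of all genes. In LY against DMSO and LY+FGF4 against FGF4, 0 of the 119 passed in limma, with 4 and 19 of the 119 at an unadjusted p under 0.05, against 8.59% and 18.8% of all genes. Of 38 S phase genes, Tk1 (thymidine kinase) fell by 3.34 and Rrm2 (a ribonucleotide reductase subunit) rose by 0.86 in LY+FGF4 against DMSO, with adjusted p-values of 0.00654 and 0.0205. These 2 are 5.26% of the 38, against 9.5% of all genes tested. Tk1 also fell in LY+FGF4 against FGF4 (-2.79, adjusted p = 0.0198), and Rrm2 rose in LY+FGF4 against LY (0.77, adjusted p = 0.0296). Of 15 CDK inhibitor, D cyclin and related genes, 12 passed the filter, and Cdkn1c (p57, an inhibitor of cyclin-dependent kinases) was the 1 that passed a test, in LY+FGF4 against LY (-3.76, adjusted p = 0.00668).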

How the data were processed

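Expression was measured in 26 libraries of 1 ICM each, in 4 groups given by the treatment label. The authors deposited TPM values per gene symbol, from reads that, per the labels, had been trimmed and de-duplicated. The tools STAR and RSEM and the build mm10 come from the submitters' processing notes. Tool versions, the annotation and the strand setting were not given in the sources used here. TPM values hold no read number, so depth is unknown and no counting interval is given.

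Differences were tested on log2(TPM + 1) with limma 3.58.1 in R 4.3.3. The 12034 genes with 1 TPM or more in 5 or more libraries entered 1 fit of all 26 libraries, with a mean for each group and eBayes set to trend and robust. Two-sided p-values were Benjamini-Hochberg adjusted over all genes tested, at a threshold of 0.05, for 5 pairwise comparisons and the interaction of LY and FGF4. The fit was tested on simulated data. Each library is a separate embryo, so p-values measure the spread between embryos.

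Genes named with values are those past the threshold and, per comparison, the 3 with the largest positive and the 3 with the largest negative log2 fold change. Of the other mitotic, S phase and CDK inhibitor genes, those past the threshold were named, at most 4 per list and comparison by smallest p, and Nuf2, Ccnb2, Mad2l1, Cenpe and Kif20a were named after their values were seen. The members, the lists and this rule were chosen with earlier results of these data known. Alternatives were median-ratio scaling, a pseudocount of 0.1, no filter, a filter at a TPM of 5, a replicate block, the number of genes as a covariate and leaving out each library. Leaving out the 6 libraries under 9000 genes was added after the data were seen. Coordinates are from GENCODE M21 on GRCm38, which matched 53255 of 55254 symbols and may differ from the annotation the authors used. Sequence shared with other genes was counted over stretches of 50 bases of the annotated transcripts. 1 gene of the other mitotic lists that passed the test is counted but not reported here.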

Additional observations from a re-analysis of the deposited data

Results flagged for a closer look

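In 8 of 76 gene and group combinations checked, the highest or lowest library lay far from the nearest other library of its group relative to the whole range of the group. For independent values from a normal distribution, chance gives about 1 in 20 such gaps. The genes share libraries and TPM need not be normal, so the 8 of 76 cannot be read against that share. DMSO replicate 8 was the highest of 5 DMSO libraries for 4 of these genes. It had 697 TPM for Cdk1, where the other DMSO libraries had 245 to 371 TPM, 6.56 TPM for Mki67 (others 3.16 to 3.62 TPM), 257 TPM for Ube2c (others 65.8 to 98.0 TPM) and 52.5 TPM for Cdc25c (others 4.47 to 18.4 TPM). DMSO replicate 9 was the lowest of its group for Cdca3, at 136 TPM, where the others had 213 to 232 TPM. LY+FGF4 replicate 8 was the highest of its group for Cenpa, at 540.2 TPM (others 174 to 257 TPM), and for Pttg1, at 1297 TPM (others 509.6 to 698 TPM). LY replicate 4 was the highest of its group for Mki67, at 24.3 TPM (others 1.06 to 9.03 TPM).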

How the results depend on the processing

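Of the 36 genes, the number that passed was 0 for LY against DMSO with the replicate block, against 1 as reported. For LY+FGF4 against FGF4 it was 0, against 1, with the number of genes as a covariate and without the 6 libraries under 9000 genes. For LY+FGF4 against LY it was 1 without the filter and 0 with the covariate, against 2. For LY+FGF4 against DMSO it was 2 with the replicate block, 0 with the covariate and 3 without the 6 libraries, against 5. When 1 library was left out, it ranged from 0 to 1 for LY against DMSO, 0 to 1 for FGF4 against DMSO (1 without LY+FGF4 replicate 2 or DMSO replicate 8), 1 to 1 for LY+FGF4 against FGF4, 1 to 3 for LY+FGF4 against LY and 2 to 8 for LY+FGF4 against DMSO (8 without LY+FGF4 replicate 7, 2 without DMSO replicate 6), and it stayed at 0 for the interaction. No call changed direction in any setting run. Of the largest fold changes per comparison that did not pass, Nusap1 in LY+FGF4 against FGF4 and the Top2a interaction changed sign without the 6 libraries (-0.40 and -0.43). That setting also called genes not called otherwise, Cdk1 and Ube2c (lower) in LY+FGF4 against LY and Cdk1 and Kif23 (lower) in LY+FGF4 against DMSO, beside Cdca3. Over all genes, the number called moved by more than 1.5 times with the replicate block (5 against 45 for LY against DMSO, 41 against 294 for FGF4 against DMSO, 224 against 427 for LY+FGF4 against FGF4, 460 against 1143 for LY+FGF4 against DMSO, 2 against 6 for the interaction). With the covariate the counts were 19, 181, 187, 108 (against 758 for LY+FGF4 against LY) and 75, in the order LY against DMSO, FGF4 against DMSO, LY+FGF4 against FGF4, LY+FGF4 against LY and LY+FGF4 against DMSO. Without the 6 libraries they were 134, 470, 171 and 614, leaving out LY+FGF4 against LY, and 27 for the interaction. The cause was not tested. The residuals of same-numbered libraries showed little correlation (median r -0.00406 and highest r 0.068 over 31 pairs). This gave no sign that the numbers pair embryos, but a weak shared effect could be missed by such a check. Leaving out 1 library moved the count over all genes to between 16 and 61, 112 and 431, 282 and 589, 528 and 872, 672 and 1285, and 2 and 11, in the order above with the interaction last.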

Other observations

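Pttg1 values fell apart into separate ranges, which was noticed after the values were seen. No library lay between 98.2 and 346 TPM, a gap of 1.81 on the log2(TPM + 1) scale. Of the 8 libraries below the gap, 6 were FGF4 libraries, 1 was an LY library, 1 was a DMSO library and 0 were LY+FGF4 libraries, and 18 libraries lay above it.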
